A study of Mus musculus with 10 samples.

Results

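The genes described here are 8 markers of microfold cells, namely Gp2, Spib, Tnfaip2, Marcksl1, Prnp, Aif1, Clu and Pglyrp1. They were chosen by name. Each was found through the probe sets that carry its symbol alone in the platform annotation, and 17 probe sets matched. Each gene was represented by its probe set with the highest mean, and the others served as a check. All 8 passed the filter on low signals and were among 14087 genes tested. Each was above the 40th percentile of its array on all 10 arrays, so none passed through 1 group alone.

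The arrays were Affymetrix expression arrays hybridised with RNA of medullary thymic epithelial cells (mTECs) from mice 3 weeks of age on a C57BL/6 background. The sort took epithelial cells (EpCAM present, the leukocyte antigen CD45 absent) with a high level of the costimulatory ligand CD80. There were 5 arrays of wild-type cells (WT 1 to WT 5) and 5 of cells labelled Fezf2 KO (KO 6 to KO 10), which lack a zinc finger transcription factor of mTECs. The labels state neither the deleted part of Fezf2 nor whether the deletion was confined to the thymic epithelium, and they do not say that arrays came from separate mice. The p-values therefore rest on array-to-array spread alone, part of which may be technical.

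Microfold cells are epithelial cells that lie over lymphoid follicles of the gut and carry particles and microbes from the lumen to the immune cells beneath. Their differentiation is driven by the cytokine RANKL, which signals through the receptor RANK and NF-kB and induces the ETS transcription factor Spi-B. The thymic medulla holds small populations of epithelial cells with programmes of peripheral cell types, microfold cells among them, and RANK signalling is also a known driver of mTEC maturation. In sorted bulk RNA, fewer cells of a type and less RNA per cell cannot be told apart.

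Upstream sequences are shown for 3 members, because they contrast a gene that was higher in KO cells (Pglyrp1), a gene that was lower (Prnp) and the defining surface receptor of microfold cells (Gp2). Each runs over the 250 bases before the RefSeq start of the gene, 5′ to 3′ on the strand of the gene, in GRCm38.p6. Capitals mark matches, on either strand, to 3 motifs: the core of the site bound by Spi-B and its relative PU.1 (GAGGAAG), an NF-kB site (GGG, then any 2 bases, then TTTCC) and the TATA box (TATAAA). The windows are chr7:18884440-18884689 on the plus strand for Pglyrp1, chr2:131909678-131909927 on the plus strand for Prnp and chr7:119459273-119459522 on the minus strand for Gp2.
Pglyrp1: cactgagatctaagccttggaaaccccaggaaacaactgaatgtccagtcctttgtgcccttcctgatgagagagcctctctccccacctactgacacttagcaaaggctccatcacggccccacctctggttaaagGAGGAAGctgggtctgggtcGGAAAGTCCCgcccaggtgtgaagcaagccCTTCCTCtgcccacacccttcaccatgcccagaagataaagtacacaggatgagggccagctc
Prnp: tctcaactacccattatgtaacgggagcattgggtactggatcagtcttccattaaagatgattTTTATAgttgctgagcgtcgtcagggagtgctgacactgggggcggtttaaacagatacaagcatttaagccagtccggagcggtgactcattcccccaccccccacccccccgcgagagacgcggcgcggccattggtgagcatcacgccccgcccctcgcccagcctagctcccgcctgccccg
Gp2: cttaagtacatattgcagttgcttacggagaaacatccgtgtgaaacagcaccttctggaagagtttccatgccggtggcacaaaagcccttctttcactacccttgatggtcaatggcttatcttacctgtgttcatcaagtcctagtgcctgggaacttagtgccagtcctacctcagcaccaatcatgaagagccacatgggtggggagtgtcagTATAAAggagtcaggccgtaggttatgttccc

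The Pglyrp1 window held the Spi-B core at 2 positions, 113 to 107 bases before the start on the plus strand and 63 to 57 bases before it on the minus strand, with the NF-kB motif between them on the minus strand, 93 to 84 bases before the start. The TATA box of Gp2 lay 32 to 27 bases before its start, and the Prnp match to the same letters lay 186 to 181 bases before its start on the minus strand. A window was found for 7 members. Pglyrp1 alone among these 7 held the Spi-B core, which 10.6% of all 32851 windows of this length hold, and it alone held the NF-kB motif, found in 1.41%. The TATA box was in 2 of the 7 and in 12.4% of all windows. These matches describe letters in the window and are no evidence of binding.

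The microfold genes did not move as a block. Pglyrp1 and Clu, which encode secreted proteins, were higher in KO cells, Prnp, which encodes the prion protein, was lower, and the other 5 did not pass the threshold (limma on log2(signal + 16), Benjamini-Hochberg adjusted p under 0.05). The 2 higher members compare with 13.0% of all genes tested that were called higher, and the 1 lower member with 16.2% called lower. The total of 3 of 8 compares with 29.2% called in either direction, so the share of members called was near the background. Without WT 1 and KO 6, or with these arrays as a factor in the fit or with array weights, 5 of 8 were called, against 31.5%, 36.2% and 39.5% of all genes. The median log2 change of the 8 members was -0.008, against -0.03 over all genes. Fezf2 itself had signals of 5054 to 5895 on WT arrays and of 12.1 to 18.3 on KO arrays, as the labels say.

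**Figure D1:**
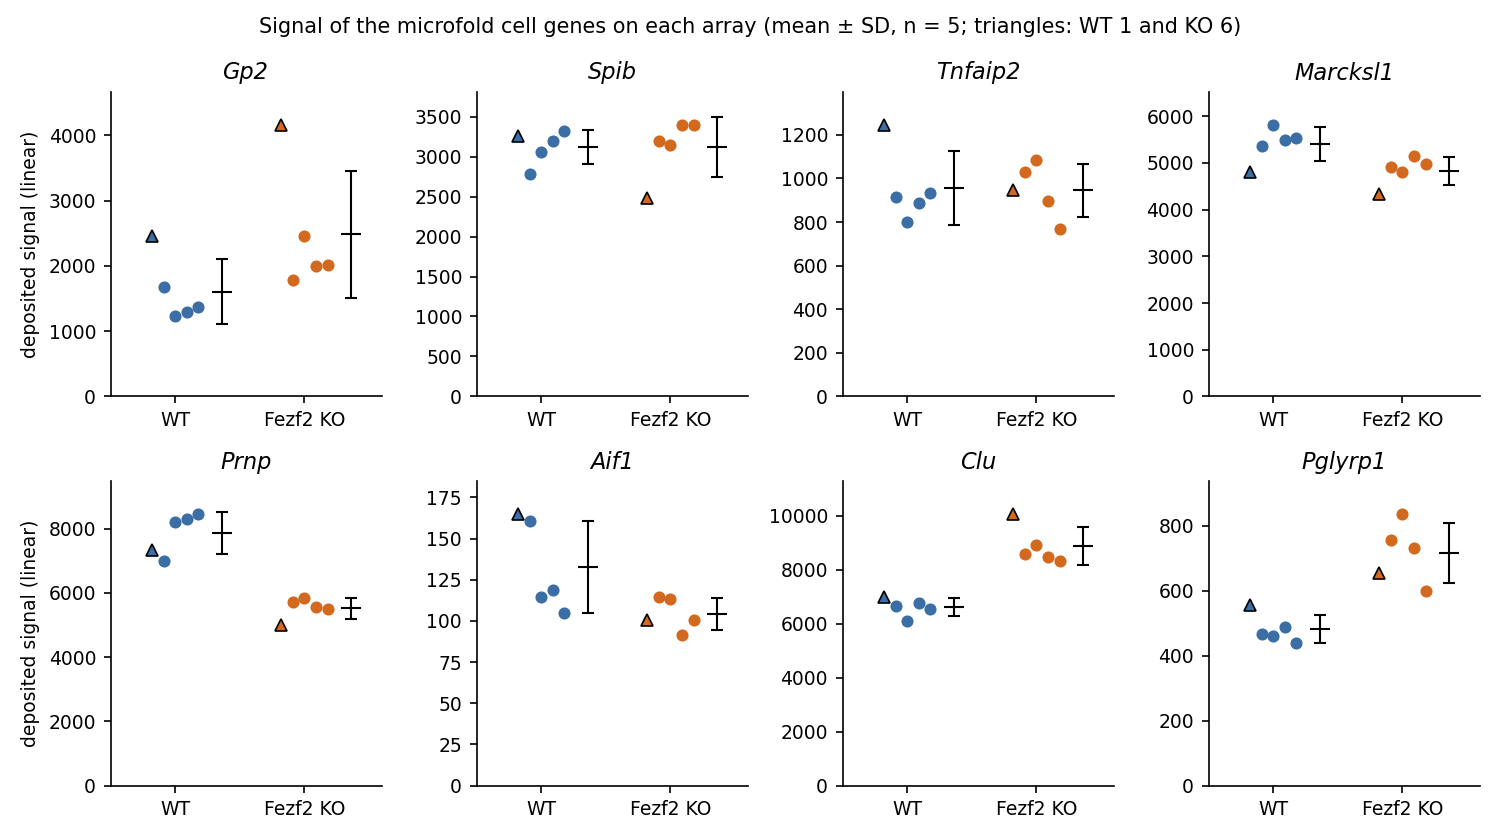
Deposited linear signal of each member's tested probe set on each of the 10 arrays, with group mean and SD (n = 5); triangles mark WT 1 and KO 6. KO points lie wholly above WT points for Clu and Pglyrp1 and wholly below them for Prnp, and KO 6 stands apart at 4163 for Gp2 and 2483 for Spib.

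Mean signal of the 24 poly-A spike-in control probe sets was graded over the 10 arrays, from 115 on WT 2 to 759 on KO 6. WT 1 ranked next below KO 6 at 537, followed by WT 4 at 422 and WT 5 at 334. WT 1 was thus paired with KO 6 by rank and not by a clear gap to the other arrays. Signals of Xist, the RNA that coats the silenced X chromosome in female cells, were 21.1 on WT 2, 26.9 on KO 6 and 30.0 on KO 8, and at least 5304 elsewhere. The cells carried their defining markers: the Epcam mean was 7344 ± 232 for WT and 7695 ± 261 for KO arrays (SD, n = 5 each), and Aire, the regulator of tissue antigens in mTECs, fell from 8791 ± 1156 to 6504 ± 1199 (limma adjusted p = 0.0282). Of 12 such markers 4 were higher in KO cells, namely Krt5, Cdh1, Cldn3 and Cldn4, and Krt14 and Aire were lower. Over all genes, 13.0% were called higher and 16.2% lower. Ptprc, which encodes CD45, was 210.3 to 298 in WT and 155 to 278 in KO cells. It was above the 40th percentile on all 10 arrays, so its signal was not at the floor, although the sort took cells without CD45.

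Of the 2 surface proteins, Gp2 had a higher mean in KO cells without passing the threshold and Prnp fell. Gp2, the glycoprotein on the apical membrane of microfold cells that binds the FimH pili of bacteria and is also made by pancreatic acinar cells, had signals of 2452, 1675, 1234, 1297 and 1366 on WT 1 to WT 5. On KO 6 to KO 10 they were 4163, 1783, 2456, 1998 and 2019. The lowest 3 WT arrays were WT 3 to WT 5, KO 6 was far above the other KO arrays, and the groups overlapped through WT 1. The WT mean was 1605 ± 503 and the KO mean 2484 ± 969.9 (SD, n = 5 each), with a log2 change of 0.60 (95% interval 0.10 to 1.11, not adjusted for the number of genes, as for all intervals here; limma adjusted p = 0.0705). By exact permutation (two-sided) p was 0.0556. Gp2 had the widest spread of the members, with a coefficient of variation of 31.3% in WT and 39.1% in KO cells.

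Whether Gp2 passed depended on the pair of arrays with the highest spike-in signals. Without WT 1 and KO 6 the Gp2 signals were 1234 to 1675 in WT and 1783 to 2456 in KO cells. The groups no longer overlapped, since WT 1 was the array through which they had. Over all genes, the groups did not overlap for 32.4% in these 8 arrays. The means were then 1393 ± 196 and 2064 ± 282 (SD, n = 4 each), and the log2 change of 0.56 passed the threshold (SE 0.11, limma adjusted p = 0.00267). WT 1 and KO 6 compared with each other gave a ratio of 1.70, and the means of the other arrays one of 1.48. With WT 1 and KO 6 as a factor in the fit, the change was 0.60 (limma adjusted p = 0.000561). Leaving out WT 1 alone gave 0.77 (limma adjusted p = 0.0181), and leaving out KO 6 alone gave 0.40 (limma adjusted p = 0.127). Among the arrays with Xist signal, 4 WT and 3 KO, the Gp2 change was 0.34 (limma adjusted p = 0.298). The KO arrays without Xist signal, KO 6 and KO 8, were the highest for Gp2 of all arrays, with a mean of 3309, while WT 2 without Xist signal was at 1675. The part of spike-in level and sex in the Gp2 values was not tested beyond these fits.

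Prnp encodes the cellular prion protein, a membrane-anchored glycoprotein that on microfold cells takes part in uptake of bacteria and is also made by neurons and stromal cells. Its signals were 7331, 6985, 8221, 8305 and 8459 on WT 1 to WT 5, and 4997, 5727, 5829.85, 5565 and 5501 on KO 6 to KO 10. Every KO array was below every WT array, and KO 6 was the lowest. The means were 7860.2 ± 658 and 5524 ± 322 (SD, n = 5 each), a log2 change of -0.51 (95% interval -0.65 to -0.37, limma adjusted p = 0.000122). KO signals lay wholly below WT signals for 12.0% of all genes. By exact permutation (two-sided) p was 0.00794, which no split of 5 against 5 arrays can undercut. The weaker Prnp probe set also separated the groups, though KO 6 was its highest KO array, with 2173 to 2626 on WT and 1382 to 1756 on KO arrays and a log2 difference of -0.64.

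**Figure D2:**
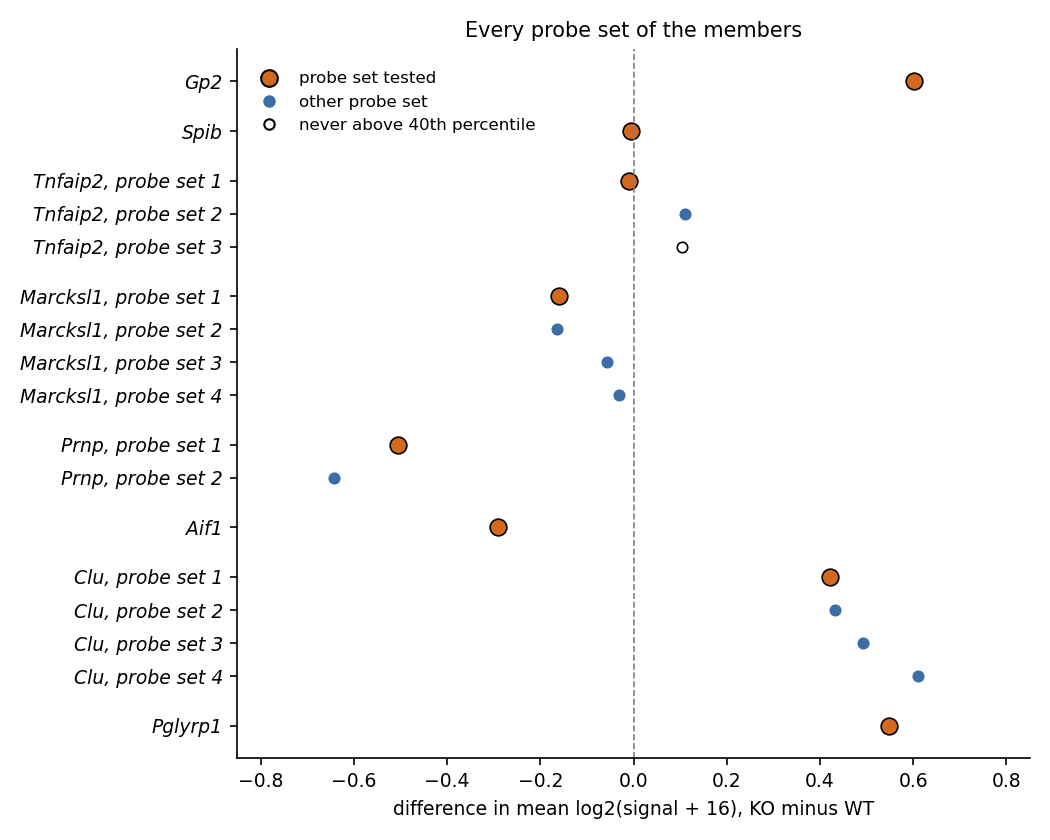
Difference in mean log2(signal + 16), KO minus WT, for each of the 17 probe sets of the members, in order of mean signal within a gene. The 2 probe sets of Prnp lie at -0.51 and -0.64 and the 4 of Clu between 0.42 and 0.61, while those of Tnfaip2 lie on either side of 0.

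Spib, the transcription factor that microfold cells require and that B cells and plasmacytoid dendritic cells also use, had nearly equal means in the 2 genotypes. The signals were 3255, 2777, 3063, 3192 and 3320.1 on WT 1 to WT 5 and 2483, 3197, 3146, 3400.2 and 3391 on KO 6 to KO 10. KO 6 was the lowest of all arrays, and the other 4 KO arrays lay within or just above the WT range. The means were 3122 ± 215 and 3124 ± 376 (SD, n = 5 each). The log2 change was -0.005, with a 95% interval of -0.19 to 0.18 (limma adjusted p = 0.97). Without WT 1 and KO 6 it was 0.09 (limma adjusted p = 0.291). Spib and Gp2 were at opposite ends on KO 6, where Gp2 was the highest and Spib the lowest of the 10 arrays.

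None of Tnfaip2, Marcksl1 and Aif1 passed the threshold. Tnfaip2, or M-Sec, which promotes thin membrane protrusions between cells, had signals of 1247, 915, 801, 887 and 932 on WT 1 to WT 5 and of 948, 1032, 1083, 895 and 769.8 on KO 6 to KO 10. WT 1 was the highest and KO 10 the lowest, and the groups overlapped. The means were 956 ± 170.2 and 946 ± 122 (SD, n = 5 each), with a log2 change of -0.01 and a 95% interval of -0.27 to 0.25 (limma adjusted p = 0.962). A second Tnfaip2 probe set gave a log2 difference of 0.11, and the weakest, which was below the 40th percentile on every array, gave 0.10. With the probe sets averaged the change was 0.05, so Tnfaip2 has no settled direction.

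Marcksl1, an actin-binding substrate of protein kinase C found in microfold cells, had signals of 4807, 5364, 5819, 5489 and 5531 on WT 1 to WT 5. On KO 6 to KO 10 the signals were 4339.55, 4917, 4803, 5137 and 4974. All 5 KO arrays were below WT 2 to WT 5, and WT 1 lay within the KO range. The means were 5402 ± 372 and 4834 ± 302 (SD, n = 5 each), with a log2 change of -0.16 (95% interval -0.29 to -0.03, limma adjusted p = 0.0715). The change passed without WT 1 and KO 6 (-0.16, limma adjusted p = 0.0145), with both as a factor (limma adjusted p = 0.00699) and without WT 1 alone (-0.20, limma adjusted p = 0.0179). The other 3 Marcksl1 probe sets gave log2 differences of -0.16, -0.06 and -0.03. The fit on the mean of the 4 probe sets gave -0.10 (limma adjusted p = 0.236).

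Aif1, or Iba1, a calcium-binding protein of actin ruffles that is needed for particle uptake by microfold cells and is a standard macrophage marker, had the signals 165, 161, 114, 119 and 105 on WT 1 to WT 5. On KO 6 to KO 10 they were 101, 115, 114, 91.3 and 100.4. WT 1 and WT 2 were above all others. WT 4 was just above the highest KO array, and WT 3 and WT 5 lay within the KO range. The means were 133 ± 28.0 and 104 ± 9.87 (SD, n = 5 each), with a log2 change of -0.29 (95% interval -0.55 to -0.03, limma adjusted p = 0.0878). It passed without WT 5 (-0.36, limma adjusted p = 0.0422) and was -0.21 without WT 1 and KO 6 (limma adjusted p = 0.213).

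The secreted members were both higher in KO cells. Clu encodes clusterin, an extracellular chaperone that marks microfold cells in the follicle epithelium and is made by many other epithelia. The Clu signals were 6994, 6637, 6097, 6776 and 6529 on WT 1 to WT 5 and 10063, 8563, 8913, 8483 and 8324 on KO 6 to KO 10. No WT array reached the lowest KO array, and KO 6 was the highest. The means were 6607 ± 334 and 8869 ± 701 (SD, n = 5 each), a 1.34-fold rise on the log2(signal + 16) scale (log2 change 0.42, 95% interval 0.29 to 0.55, limma adjusted p = 0.000222). KO signals lay wholly above WT signals for 10.1% of all genes. All 4 Clu probe sets separated the groups, with log2 differences of 0.42, 0.43, 0.49 and 0.61. The log2 change was 0.40 without WT 1 and KO 6 (limma adjusted p = 7.8e-05).

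Pglyrp1 encodes a peptidoglycan recognition protein that binds bacterial cell walls and is abundant in neutrophil granules. Its signals were 556, 467, 462, 488 and 439.9 on WT 1 to WT 5 and 654, 758, 837, 731 and 599 on KO 6 to KO 10. The highest WT array, WT 1, was below the lowest KO array, KO 10. The means were 483 ± 44.4 and 716 ± 92.5 (SD, n = 5 each), a 1.46-fold rise on the log2(signal + 16) scale (log2 change 0.55, 95% interval 0.35 to 0.75, limma adjusted p = 0.000859). Without WT 1 and KO 6 the log2 change was 0.63 (limma adjusted p = 0.000415). By exact permutation (two-sided) p was 0.00794 for Clu and for Pglyrp1, as for Prnp, 0.0317 for Marcksl1 and 0.0476 for Aif1. That test, over 8 members and unadjusted, was under 0.05 for 5, against 38.7% of all genes.

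**Figure D3:**
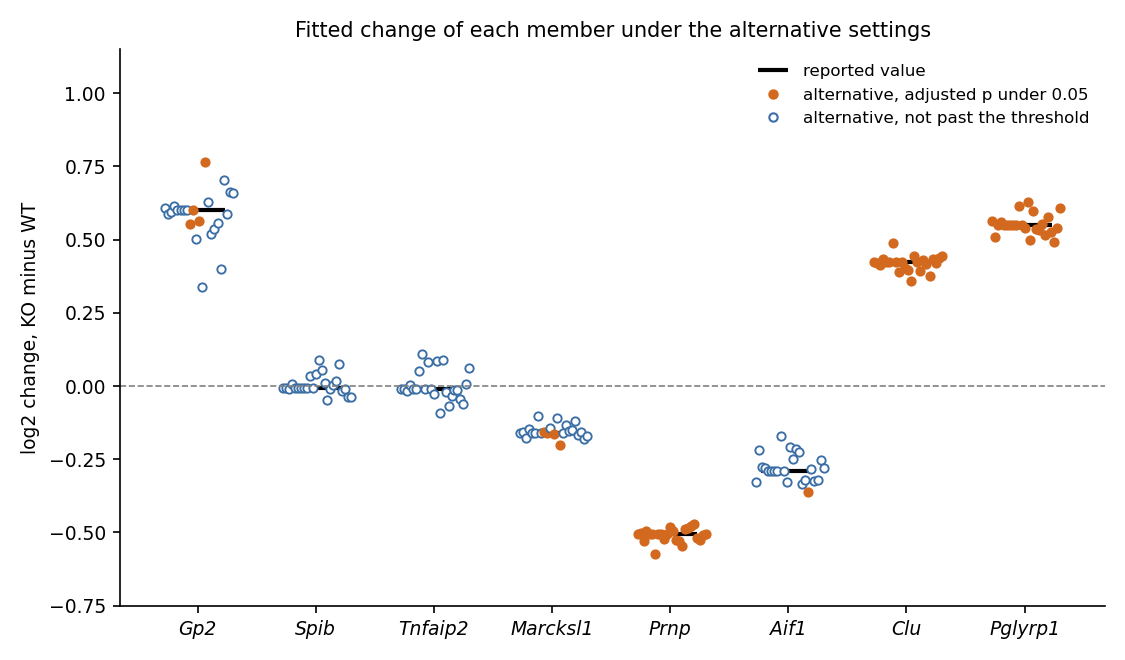
Fitted log2 change of each member, KO minus WT, as reported (bar) and under each alternative setting (points; filled where the adjusted p was under 0.05). Prnp, Clu and Pglyrp1 passed in every setting in which they were tested, Gp2 in 4 and Spib and Tnfaip2 in none.

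The 3 members that passed kept their call and direction in each alternative in which they were tested. Prnp ranged from -0.57 to -0.47, Clu from 0.36 to 0.49 and Pglyrp1 from 0.49 to 0.63. Among arrays with Xist signal, the changes were -0.53 for Prnp, 0.36 for Clu and 0.50 for Pglyrp1, all past the threshold. The genes whose centred log2 profile over the 10 arrays was most like that of Prnp were Ssh1, a phosphatase that activates the actin-severing protein cofilin, and the T-box factor gene Tbx3, with root mean square differences of 0.055 and 0.057. For Clu they were Fam174a and Pdlim1 (0.050 and 0.058), and for Pglyrp1 they were Vat1l and Tmem54 (0.087 and 0.092). Vat1l had mean signals of 17.7 in WT and 32.9 in KO cells, and it passed the filter through the KO arrays.

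Members have expression outside microfold cells, and markers of other cell types also differed between the groups. Over all genes, 13.0% were called higher and 16.2% lower, against which the counts here and in the next paragraph can be set. Of 15 macrophage markers 6 were lower and 3 higher, and their summed signal was 12048 to 12771 in WT and 9104 to 10337 in KO cells. Among them, Csf1r, the receptor of the macrophage growth factor, fell from 617 ± 67.2 to 424 ± 36.7 (limma adjusted p = 0.000727), and Adgre1, a standard surface marker of macrophages, from 161 ± 5.92 to 97.9 ± 28.4 (limma adjusted p = 0.0070; SD, n = 5 each). Fcer1g and Mrc1 also fell, by 1.35 and 0.64 on the log2 scale. Others went the opposite way: Fcgr3, an Fc receptor, rose from 86.5 ± 12.1 to 201 ± 19.0 (limma adjusted p = 6.2e-06), and the complement gene C1qb from 276 ± 9.40 to 455 ± 93.0 (limma adjusted p = 0.00157; SD, n = 5 each). Itgam, with a low WT mean of 28.7, rose by 0.47. Most of the sum came from Laptm5, which fell from 5159.7 to 4108, and Lyz2, which fell from 4291 to 3187. The part of this difference in the Aif1 values was not tested. Of 9 tested neutrophil markers 2 were higher and 1 lower, with a sum of 9123 to 13398 in WT and 12630.4 to 16619 in KO cells. Most of this sum came from S100a8, which rose from 4859 to 7062 (limma adjusted p = 0.00674), and S100a9, at 2653 and 3379 (limma adjusted p = 0.0712). Ltf, the granule protein lactoferrin, rose from 886 ± 304 to 2442 ± 896 (limma adjusted p = 0.000561), Camp fell by 0.78 on the log2 scale, and the defining markers Cxcr2 and Elane were below the 40th percentile on every array. The part of neutrophil RNA in the Pglyrp1 values was not tested.

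Of 7 tested B cell markers 2 were lower and 1 higher, with a sum of 4446 to 5678 in WT and 4715 to 4867 in KO cells. Fcer2a fell from 972 to 344 and Cd79b from 229 to 141, while Ms4a1 rose from 61.2 to 83.3. Most of the sum came from Blnk, at 3161 in WT and 3616 in KO cells, which did not pass. Pax5, a defining B cell factor, was below the 40th percentile on every array. Of 6 tested dendritic cell markers 3 were lower and 1 higher. Their sum was 2192 to 2659.9 in WT and 1549 to 2181 in KO cells, mostly from Irf8, which fell from 1833 to 1422. Flt3 fell from 77.3 to 46.8 and Siglech from 30.6 to 24.8, while Ccr9 rose from 224 to 292. Xcr1 was below the 40th percentile on every array. Of 8 fibroblast markers 1, Lum, was higher, with sums of 1811 to 2508 in WT and 2069.9 to 2415 in KO cells. Of 7 tested endothelial markers 5 were higher and none lower, against 13.0% and 16.2% of all genes. The 5 were Pecam1, Cdh5, Kdr, Egfl7 and Emcn, and some were near the floor in WT cells. Emcn rose from a mean of 17.3 to 34.0 and Pecam1 from 23.0 to 43.1, where the 40th percentile of the arrays was 21.5 to 22.1. The Emcn mean in WT cells was thus below the level of the filter, so its call rests on the KO arrays. The sums of the 7 markers were 368 to 679 in WT and 674 to 832 in KO cells. None of the 9 thymocyte markers passed, with sums of 828.98 to 1151 in WT and 525 to 1211 in KO cells. The part of these cells in the Spib, Prnp, Tnfaip2 and Clu values was not tested.

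Other genes reported in microfold cells or the follicle epithelium included RANK and several chemokines that rose. Of 12 tested, 6 rose, 2 fell and 4 did not pass, against 13.0% of all genes called higher and 16.2% called lower, with a median log2 change of 0.30 against -0.03 over all genes. RANK itself, Tnfrsf11a, rose from 425 ± 28.2 to 733 ± 35.2 (SD, n = 5 each; limma adjusted p = 4.6e-06), with log2 changes of 0.57 and 0.76 for its 2 probe sets. The chemokine genes Ccl6, Ccl9 and Cxcl16 rose by 1.33, 0.59 and 0.39 on the log2 scale. Esrrg, a nuclear receptor that acts upstream of the microfold factor Sox8, fell by 0.41. The list also held genes outside the naming rule, chosen after their values were seen. Sox8 had a change of 0.21 (limma adjusted p = 0.430) and Ccl20, the chemokine that draws B cells and dendritic cells to the follicle epithelium, one of -0.29 (limma adjusted p = 0.249). Without WT 1 and KO 6, 6 were higher and 1 lower, against 31.5% of all genes called in either direction.

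The list of the RANK to NF-kB pathway ran from receptor to transcription factors. Of 21 tested, 3 rose, 1 fell and 17 did not pass, against 13.0% of all genes called higher and 16.2% called lower, with a median of -0.06. Tnfrsf11a and Tnfrsf11b, 2 of the 3 that rose, were also counted among the other microfold genes. Tnfaip3, or A20, a deubiquitinase induced by NF-kB that restrains it, rose from 1091 ± 58.0 to 2114 ± 162 (SD, n = 5 each; limma adjusted p = 1.2e-06), with log2 changes of 0.64 and 0.94 for its 2 probe sets. Tnfrsf11b, the decoy receptor osteoprotegerin, rose by 0.49 (limma adjusted p = 0.0220), though a weaker probe set gave 0.11. Birc2 fell by 0.33 (limma adjusted p = 0.0290). Of the transcription factor subunits, which are outside the naming rule, Relb had a log2 change of -0.14 and Nfkb2 one of 0.03 (limma adjusted p = 0.338 and 0.852), and Nfkb1 was not tested. With WT 1 and KO 6 as a factor, 3 were higher and 4 lower, against 36.2% of all genes called.

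Among other ETS factors, the family of Spi-B, 4 of 19 tested were higher and 2 lower, against 13.0% and 16.2% of all genes, with a median of 0.05. Ets1 rose from 234 ± 21.8 to 449 ± 41.0 (SD, n = 5 each; limma adjusted p = 7.9e-06), with its 4 probe sets between 0.51 and 0.93. Elk3 rose by 0.60 (limma adjusted p = 0.000167), with weaker probe sets down to 0.11. Elf1 rose by 0.24, and Ets2 and Etv4 fell by 0.40 and 0.24 on the log2 scale. Spi1, which encodes PU.1, a close relative of Spi-B, is outside the naming rule and was at 47.9 ± 8.26 in WT and 38.1 ± 4.56 in KO cells (log2 change -0.23, limma adjusted p = 0.0896). Leaving out WT 3, WT 4, WT 5 or KO 8 lowered the number of called ETS factors from 6 to 3.

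Of 6 tested relatives of the members by sequence, 1 rose, 1 fell and 4 did not pass, against 29.2% of all genes called, with a median of -0.14. Aif1l, the paralogue of Aif1, rose from 466 ± 43.9 to 661 ± 44.1 (limma adjusted p = 0.000375; SD, n = 5 each), while Aif1 had a change of -0.29 that did not pass. Exoc3l4, which shares the Sec6 domain of Tnfaip2, fell from 1111 ± 48.6 to 678 ± 124 (limma adjusted p = 0.00068; SD, n = 5 each). Outside the naming rule, Umod, the relative of Gp2, had a log2 change of -0.06 (limma adjusted p = 0.82), Pglyrp2 one of -0.31 (limma adjusted p = 0.0783) and Marcks one of -0.23 (limma adjusted p = 0.0788). The difference between each relative and its member was not tested.

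**Figure D4:**
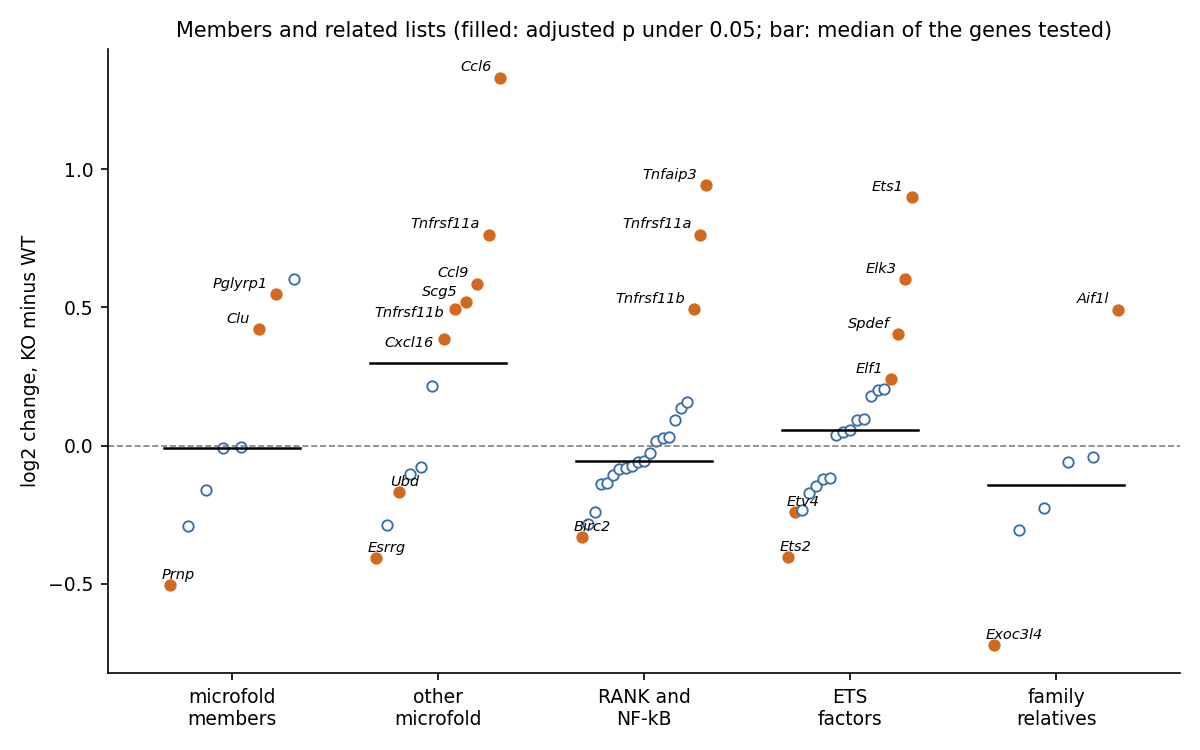
Log2 change, KO minus WT, of each tested gene in the member list and the 4 related lists; filled points have an adjusted p under 0.05 and bars are the medians of the genes tested. The median is -0.008 for the members and 0.30 for the other microfold genes, with Ccl6 at 1.33 the highest.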

How the data were processed

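The table deposited by the authors holds 1 intensity per probe set and array on a linear scale. The submitters' processing notes name MAS5 with no version. How the arrays were scaled and corrected for background is not given in the sources used here, and detection calls were not used. The annotation named exactly 1 gene for 34958 of 45101 probe sets, several for 932 and none for 9211, and 34754 had an Entrez identifier in the RefSeq table of GRCm38.p6, which updated their symbols. A probe set was kept (23581 in all) if at least 5 of 10 arrays put it over their own 40th percentile, and the brightest kept set stood for its gene. The test was limma 3.58.1 in R 4.3.3 on log2(intensity + 16), with eBayes using trend and robust estimation, as KO minus WT. Low intensities have their fold changes compressed on that scale. Exact permutation over arrays, two-sided, was the second test of single members.

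The members and lists were chosen with earlier results of these data known. Named genes were the members, up to 5 called genes with the smallest adjusted p from each of the lists of other microfold genes, the RANK to NF-kB pathway, ETS factors and relatives, defining cell type markers, and the 2 genes nearest in centred profile to each called member. Genes named outside that rule, which the text marks as such or gives to complete a cell type list, were chosen after their values were seen. On simulated arrays of 14087 genes, 71% of 100 genes changed by 0.5 (log2) and 96% of 100 changed by 1 were found again, with 11 calls of unchanged genes. Only these 200 genes were changed, with noise independent between genes, while 29.2% of genes were called in the data. The rates hold for that setting and do not give the recovery of the reported test. Precision is limited by the number of arrays. The closing section gives the alternatives.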

Additional observations from a re-analysis of the deposited data

Results flagged for a closer look

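KO 6 lay far from the other KO arrays in 2 members, judged by its gap to the nearest array against the range of its group. For Gp2 it was at 4163, with the other KO arrays between 1783 and 2456, and the gap took 0.717 of the range. For Spib it was at 2483, with the others between 3146 and 3400.2, and the gap took 0.723 of the range. With 16 groups of 5 arrays examined, chance flags about 1 in 20. KO 6 also had the highest poly-A spike-in signal, 759, and no Xist signal, and the part of either in these values was not tested.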

How the results depend on the processing

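The 25 alternatives changed the offset (1 or 64), the scaling (quantile or median), the filter (none or the 60th percentile), the probe sets (averaged, or without the suffixes _x, _s and _a), the variance model (no trend, or array weights), the arrays (WT 1 and KO 6 as a factor or omitted, Xist signal as a factor or required, 10 fits with 1 array omitted) and the threshold (0.01). Prnp, Clu and Pglyrp1 kept their calls in each fit that tested them. However, Clu, Gp2, Marcksl1 and Aif1 were not tested without shared-sequence suffixes. In that fit 2 of 4 members were called, against 3463 of 12236 genes. The number of called members was 5 with array weights, with WT 1 and KO 6 as a factor and without both, against 3, through Gp2 and Marcksl1, and 3 to 5 with 1 array left out. The cause was not tested. With 1 array left out, 3413 to 4171 of all genes were called. The exact test was under 0.05 for 2 of 4 members without shared suffixes, where fewer were tested, for 3 with Xist arrays only, and for 3 to 5 with 1 array left out. Spib turned positive with median centring (0.00647), array weights (0.0355), the Xist factor (0.0412), Xist arrays only (0.0536) and without WT 1 and KO 6 (0.0904), and ranged from -0.0466 to 0.0746 with 1 array left out. Tnfaip2 turned positive with median centring (0.00199), averaged probe sets (0.050), no shared suffixes (0.11), array weights (0.0824) and without WT 1 and KO 6 (0.0853), and ranged from -0.0687 to 0.0885 with 1 array left out. None of these passed. Called genes in the 4 related lists together numbered 18, 11 at a threshold of 0.01 and 11 to 20 with 1 array left out, the lowest without WT 4. Other microfold genes numbered 5 at 0.01 and 5 to 8 with 1 array left out. RANK to NF-kB genes numbered 2 at 0.01, 7 with WT 1 and KO 6 as a factor and 2 to 4 with 1 array left out (2 without WT 3 or WT 4). ETS factors numbered 3 at 0.01 and 3 to 7 with 1 array left out. Relatives numbered 1 without shared suffixes and 4 with the factor. Over all genes, 2473 were called at 0.01 against 4119. No paired analysis was possible because the groups share no replicate number.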
